A study of Mus musculus with 30 samples.

Results

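Lcn2, Ltf, Pigr, Slpi, Pglyrp1, Chil1, Saa3, Tff2, Reg3g and Bpifa1 are 10 genes for secreted proteins of mucosal defence and of the acute phase. They were picked from the 55487 genes of the count files by their symbols, and the choice was made knowing that most of them stood apart in the cultures given the exacerbation cocktail (EC). The values that chose them, those of EC against vehicle, are therefore given below as a description without a test. All 10 genes had enough reads to be fitted in both cell fractions. Tff2 did so in the fibroblast fraction only through the EC libraries, which held 147 reads of it against 3 under vehicle and at most 5 in each other group.

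Epithelia of the airways and alveoli coat their surface with proteins that bind microbial products, hold back iron, inhibit proteases or carry antibodies, and many of the genes are switched on by interleukin-1 and tumour necrosis factor. The acute phase is the matching systemic programme, best known from the liver, to which the serum amyloid A and lipocalin proteins belong. Several of the products, among them lactotransferrin, lipocalin-2 and peptidoglycan recognition protein 1, are also stored in the granules of neutrophils.

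The libraries came from organoids, in which 300000 Epcam+ lung cells of wild-type C57BL/6J mice were mixed in Matrigel with an equal number of CCL206 cells, fibroblasts of a mouse lung line that had been made unable to divide. After 72 h of exposure the cells were sorted again on Epcam, and RNA of the Epcam+ (epithelial) and the Epcam- (fibroblast) fraction was sequenced. The treatments were vehicle, EC (tumour necrosis factor α, the interleukins IL-1β and IL-6, and IL-8, for which the study used the mouse counterpart KC), a cocktail modelled on idiopathic pulmonary fibrosis (IPFc, which held TSLP, TNFα, TGF-β and CCL2 besides IL-33, IL-13, IL-8, IL-4 and IL-1β) and TGF-β alone at 2 ng/ml. Cells of 4 mice, numbered 1 to 4, gave 30 libraries, 4 in each of the 8 groups except the epithelial TGF-β group (mice 2, 3 and 4) and the fibroblast vehicle group (mice 1, 3 and 4), and the libraries not named were not analysed here. Mice are thus the replicates, while the fibroblasts are of 1 line throughout, so that the fibroblast values carry no spread between fibroblast donors.

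The epithelial libraries held 8275413 to 20317181 assigned reads and the fibroblast libraries 5113828 to 18447405. The sort was not complete. The summed level of 37 epithelial marker genes was 28982 to 36704 CPM (read counts scaled to library size) in the epithelial vehicle libraries and 6953 to 11554 CPM in the fibroblast vehicle libraries. From reference genes of the other fraction, RNA of epithelial origin was put at 21.0% ± 7.56 (SD, n = 3) of the level of the partner library in fibroblast vehicle, 42.7% ± 10.8 (n = 4) in EC, 18.8% ± 8.84 (n = 4) in IPFc and 2.09% ± 1.19 (n = 4) in TGF-β. In the opposite direction the fibroblast share in epithelial libraries was 6.01% ± 2.43 (n = 4) for vehicle, 11.8% ± 4.77 (n = 4) for EC, 11.3% ± 5.29 (n = 4) for IPFc and 29.4% ± 3.10 (n = 3) for TGF-β. These shares moved with treatment and are set beside the results they touch. In RNA of mixed cells, fewer cells of a type and less RNA per cell cannot be told apart.

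Neutrophils, the other main source of several of these proteins, left little trace. Of 14 neutrophil genes, lactotransferrin left out, 12 to 14 stayed under 1 CPM in every library of each group, and their summed level was 0 to 4.72 CPM outside the epithelial IPFc group. There it was 9.87 to 13.3 CPM, of which the resistin-like gene Retnlg made up 9.87 to 13.0 CPM. Within the fibroblast fraction the sum was 2.59 to 4.60 CPM under EC and 0.800 to 1.13 CPM under vehicle. Camp, on the same list, was at 0.280 to 3.40 CPM in fibroblast EC and at most 0.0728 CPM in fibroblast vehicle. Of 25 genes of macrophages and other leukocytes, 15 to 21 were under 1 CPM in all libraries of a group, and their summed level was 27.8 to 216 CPM outside the epithelial TGF-β group and 185 to 331 CPM in it. In that group Cd74 made up 159 to 269 CPM and Lyz2 13.1 to 50.0 CPM of the sum, while Ptprc was at most 0.0766 CPM. A list of 30 fibroblast genes summed to 844 to 2849 CPM in epithelial vehicle, EC and IPFc libraries, 8363 to 8810 CPM in epithelial TGF-β and 10471 to 34006 CPM in fibroblast libraries.

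The promoter windows of the genes are shown because the members rose and fell together under some treatments and apart under others. RefSeq gave the 250 bases before the start of 9 of the 10 genes on mouse build GRCm38.p6, and Tff2 was not matched. Below are Lcn2 (chr2:32387740-32387989, minus strand) and Saa3 (chr7:46715677-46715926, minus strand), the members with the highest fold under EC in epithelium, Pglyrp1 (chr7:18884440-18884689, plus strand), Reg3g (chr6:78468875-78469124, minus strand), the member furthest down under TGF-β there, and Bpifa1 (chr2:154142630-154142879, plus strand), the member that was lower under EC. Each reads 5′ to 3′ along the gene's strand, and capitals mark a match on either strand to the kB site, to the C/EBP motif TTGCNNAA or to the STAT6 motif, or on the gene's strand to TATAAA.
Lcn2: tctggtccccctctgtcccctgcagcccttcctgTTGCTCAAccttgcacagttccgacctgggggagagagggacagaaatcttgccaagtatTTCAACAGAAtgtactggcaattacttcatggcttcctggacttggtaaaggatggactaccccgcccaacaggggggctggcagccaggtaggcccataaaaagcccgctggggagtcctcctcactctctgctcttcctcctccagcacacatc
Saa3: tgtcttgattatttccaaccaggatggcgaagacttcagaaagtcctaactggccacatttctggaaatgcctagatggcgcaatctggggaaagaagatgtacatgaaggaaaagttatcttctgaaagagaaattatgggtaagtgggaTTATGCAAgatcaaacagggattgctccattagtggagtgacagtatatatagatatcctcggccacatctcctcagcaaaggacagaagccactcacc
Pglyrp1: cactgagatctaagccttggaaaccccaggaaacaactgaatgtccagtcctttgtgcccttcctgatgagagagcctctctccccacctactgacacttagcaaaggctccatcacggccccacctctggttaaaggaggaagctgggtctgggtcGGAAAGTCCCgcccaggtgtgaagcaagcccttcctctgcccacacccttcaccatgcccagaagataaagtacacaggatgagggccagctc
Reg3g: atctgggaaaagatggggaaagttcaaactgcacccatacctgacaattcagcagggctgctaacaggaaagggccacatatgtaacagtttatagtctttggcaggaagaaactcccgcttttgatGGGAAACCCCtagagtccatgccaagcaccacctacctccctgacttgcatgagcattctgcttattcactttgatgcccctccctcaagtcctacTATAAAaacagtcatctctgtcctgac
Bpifa1: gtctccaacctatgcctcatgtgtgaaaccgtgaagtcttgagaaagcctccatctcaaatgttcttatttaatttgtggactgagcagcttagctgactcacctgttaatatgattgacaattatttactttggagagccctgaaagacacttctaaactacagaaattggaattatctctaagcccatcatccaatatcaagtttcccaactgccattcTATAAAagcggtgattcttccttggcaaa
In the Lcn2 window the C/EBP letters lie at -216 to -209 from the start and the STAT6 letters at -156 to -147, and in the Saa3 window the C/EBP letters lie at -99 to -92. The kB letters lie at -93 to -84 in Pglyrp1 and at -123 to -114 in Reg3g, and the TATAAA letters at -27 to -22 in Reg3g and at -29 to -24 in Bpifa1. Of the 9 windows, 4 held the C/EBP motif (Lcn2, Ltf, Slpi and Saa3) against 9.56% of all 32851 windows of that length, and 3 held the kB site (Pglyrp1, Chil1 and Reg3g) against 7.25%. The STAT6 motif was in 1 window against 5.85%, TATAAA in 2 against 7.59%, and neither the STAT motif TTCNNNGAA (7.02% of all windows) nor the SMAD motifs GTCTAG and AGCCAGAC (8.07%) was in any of the 9. Such a match describes the letters of the window and not a bound site.

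Under EC the epithelial fraction held more transcript of 9 of the 10 genes than under vehicle, and less of Bpifa1. The highest folds were those of Saa3 and Lcn2, the acute phase and iron-withholding members, and the lowest was that of Reg3g. In all 4 mice each of the 9 genes was higher under EC and Bpifa1 was lower. Over all genes fitted, 1.96% were called higher and 2.44% lower in this comparison (edgeR, adjusted p under 0.05), a background from which nothing is read because the comparison chose the members.

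**Figure D1:**
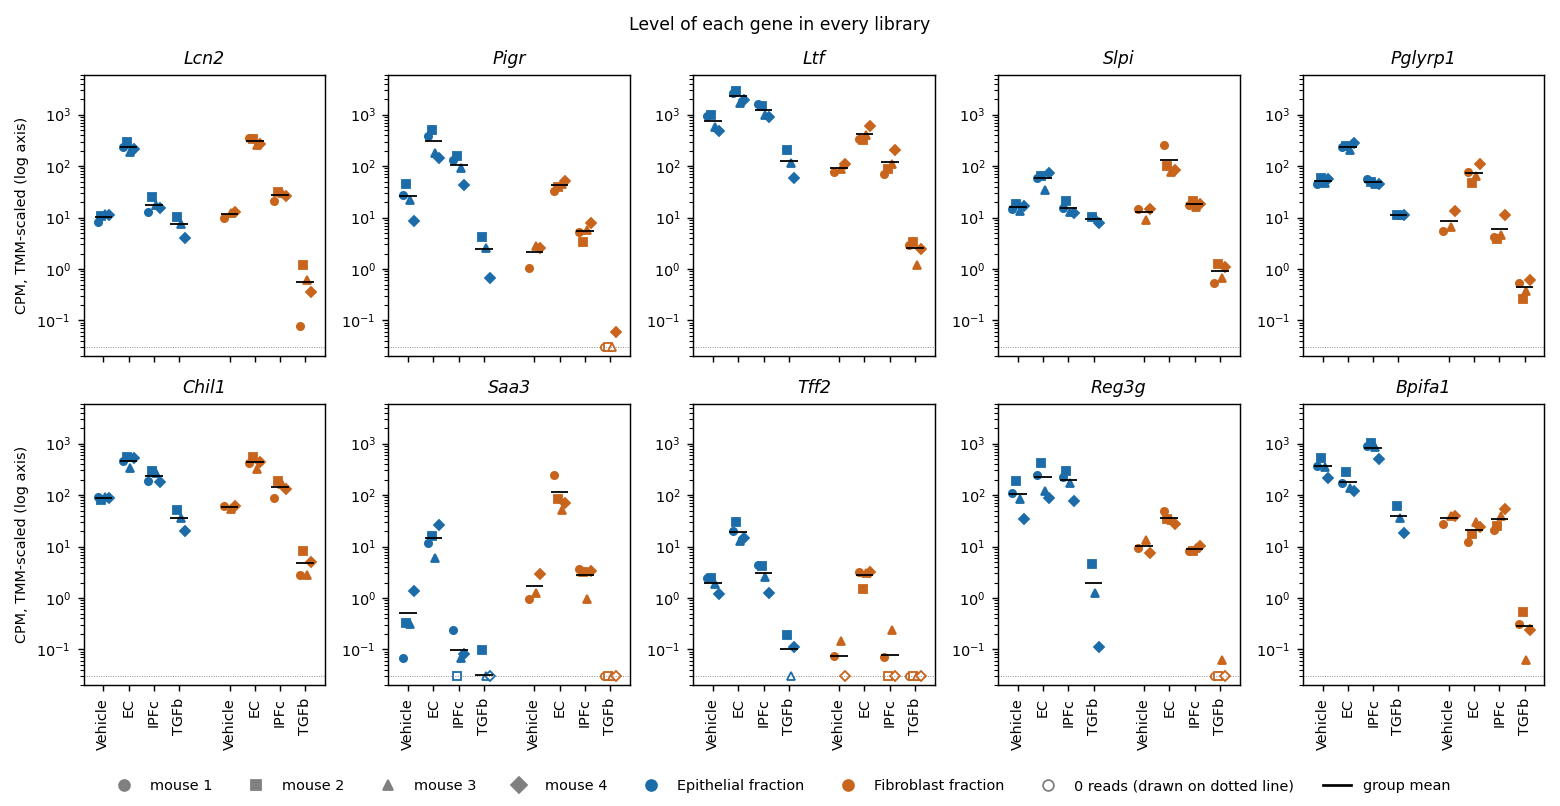
Level of each of the 10 genes in every library, in TMM-scaled CPM on a log axis, for vehicle, EC, IPFc and TGF-β in the epithelial and the fibroblast fraction. Points are libraries, bars are group means, and open symbols on the dotted line are libraries with 0 reads. Lcn2 lies at 188 to 292 CPM in the epithelial EC libraries and at 8.09 to 11.6 CPM in the vehicle libraries.

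Lcn2 encodes lipocalin-2, which binds bacterial siderophores and so keeps iron from bacteria. In the epithelial fraction its level (TMM-scaled CPM, in the order of mice 1 to 4 here and below) was 8.09, 10.9, 11.6 and 11.0 under vehicle and 235, 292, 188 and 213 under EC. The groups did not overlap, and the fitted difference was 4.47 ± 0.16 (log2, SE), or 22.1-fold. Ltf encodes lactotransferrin, an iron-binding glycoprotein of secretions, and stood at 943, 999.7, 579 and 473 CPM under vehicle and 2580.1, 2876, 1698 and 1906 CPM under EC. Its difference was 1.65 ± 0.14, or 3.13-fold.

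Pigr encodes the polymeric immunoglobulin receptor, which carries dimeric IgA and pentameric IgM across the epithelium. It stood at 27.7, 45.0, 22.3 and 8.48 CPM under vehicle and at 391, 493, 181 and 141 CPM under EC, so that the lowest EC library was above the highest vehicle library. The difference was 3.57 ± 0.13 on the log2 scale, or 11.8-fold. Slpi, an inhibitor of neutrophil elastase, went from 13.1–18.2 CPM under vehicle to 33.5–74.7 CPM under EC (1.84 ± 0.16, 3.59-fold).

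Pglyrp1, which binds bacterial peptidoglycan, was at 45.4–58.1 CPM under vehicle and at 202–279.5 CPM under EC (2.22 ± 0.10, 4.66-fold). For Chil1, a chitinase-like protein that binds chitin without cleaving it, the vehicle libraries lay close together at 90.9, 79.5, 90.3 and 87.0 CPM and the EC libraries at 469, 545, 329 and 530.1 CPM (2.42 ± 0.18, 5.34-fold). Both genes stood several-fold above a vehicle level that varied little between mice. Saa3, an acute phase protein made mainly outside the liver, was near the detection limit under vehicle at 0.0685, 0.324, 0.308 and 1.36 CPM and reached 11.6, 15.7, 6.02 and 26.0 CPM under EC (4.89 ± 0.38, 29.6-fold). With the fibroblast RNA subtracted, the Saa3 difference was 3.79 ± 0.66 and that of Lcn2 4.40 ± 0.18 (log2). Tff2, a trefoil peptide of mucus-secreting cells, went from 1.19–2.47 to 13.1–29.8 CPM (3.25 ± 0.22, 9.52-fold).

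Reg3g encodes a C-type lectin that binds peptidoglycan of Gram-positive bacteria. It was at 111, 184, 85.6 and 34.4 CPM under vehicle and at 250.1, 425, 119.95 and 87.5 CPM under EC. The groups overlapped, since the span between mice was wider than the difference between treatments, while each mouse was higher under EC (1.06 ± 0.14, 2.09-fold). Bpifa1, a lipid-binding protein of the airway surface liquid, moved the other way, from 366, 536, 348 and 215 CPM to 174, 284, 139 and 118 CPM (-1.04 ± 0.11, 2.06-fold lower). Over the members the median difference under EC was 2.32 on the log2 scale, against 0.00 over all genes fitted.

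IPFc shares IL-1β, IL-8 and TNFα with EC, and in the epithelial fraction it raised Bpifa1, the member that was lower under EC. In the comparison of IPFc with vehicle, 6 of the 10 members rose and none fell, where 2.57% of all genes rose and 1.53% fell. The 6 were Pigr, Bpifa1, Chil1, Reg3g, Ltf and Lcn2, and the median over the members was 0.74 against 0.01 over all genes (log2). The vehicle libraries are the ones that also entered the EC comparison, so the members' differences under EC and IPFc are not independent of each other.

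Pigr rose to 134, 158, 90.7 and 43.7 CPM under IPFc (4.21-fold, log2 2.07 ± 0.13, edgeR adjusted p = 1.16e-09). Bpifa1 rose to 897, 1007, 862 and 507 CPM, the highest mean of this gene among the 8 groups (2.27-fold, log2 1.18 ± 0.11, edgeR adjusted p = 4.83e-07). For Bpifa1, EC and IPFc therefore gave opposite directions, and its level under EC was 4.67-fold below that under IPFc, a difference left untested because EC chose the genes. Chil1 rose to 189.7, 298, 269 and 181 CPM (2.61-fold, edgeR adjusted p = 4.34e-05). Reg3g rose to 228, 292, 174 and 77.4 CPM (1.95-fold, edgeR adjusted p = 0.000279), close to its EC level, from which it differed by 0.10 ± 0.14 (log2).

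The 2 iron-binding members rose less under IPFc. Ltf rose to 1595, 1486, 991 and 893 CPM (log2 0.75 ± 0.13, edgeR adjusted p = 0.00189). Lcn2 rose to 13.0, 25.1, 17.7 and 15.5 CPM (log2 0.73 ± 0.16, edgeR adjusted p = 0.00716), while its EC level was higher by 3.74 on the log2 scale. Without mouse 2, and likewise after subtraction of fibroblast RNA (0.65 ± 0.17, edgeR adjusted p = 0.128), Lcn2 was no longer called and 5 members were. The calls also leaned on the pairing by mouse, since without the mouse term only Pigr and Chil1 passed.

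Slpi (12.3–20.8 CPM under IPFc, log2 -0.06, edgeR adjusted p = 0.954), Pglyrp1 (44.5–57.2 CPM, -0.07, 0.871) and Tff2 (1.23–4.37 CPM, 0.56 ± 0.25, 0.31) did not pass the test. Saa3 was at 0.243, 0, 0.0684 and 0.0819 CPM under IPFc, and its difference from vehicle of -2.30 ± 0.74 missed the threshold (edgeR adjusted p = 0.0999). Leaving out mouse 1 gave a call for Saa3 in the lower direction. These 4 genes were all higher under EC.

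**Figure D2:**
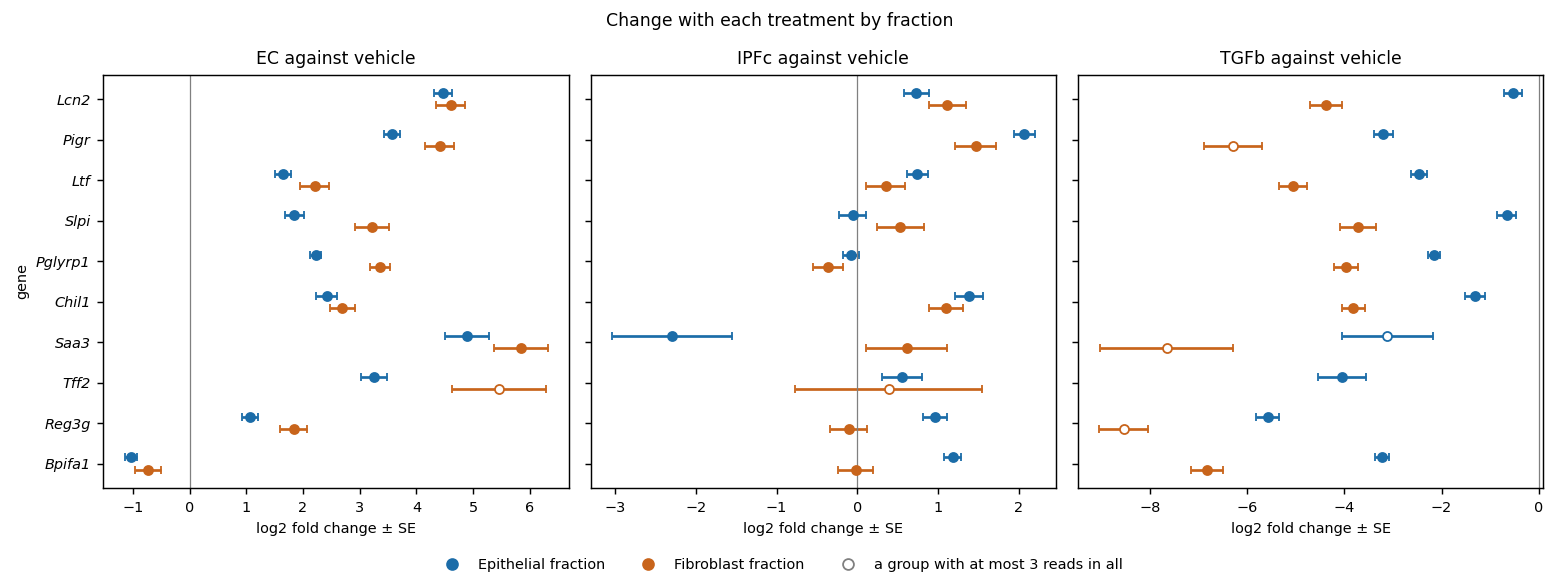
Fitted log2 fold change against vehicle with its standard error for each of the 10 genes under EC, IPFc and TGF-β, in the epithelial and in the fibroblast fraction. Open points mark comparisons in which 1 group held 3 reads or fewer in all. In the epithelial fraction every gene lies below 0 under TGF-β, and Bpifa1 alone lies below 0 under EC and above it under IPFc.

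TGF-β lowered the whole set in the epithelial fraction. All 10 members fell against vehicle, where 20.1% of all genes fell and 21.0% rose, and each member was lower in all 3 mice that had both libraries. The median over the members was -2.79 against 0.03 over all genes (log2). Beside this, the summed epithelial marker genes were at 11841 to 14443 CPM and those of 18 airway secretory genes at 886 to 1208 CPM, against 28982 to 36704 and 2564 to 3238 CPM under vehicle. Of the epithelial markers, Sftpc alone was at 924 to 2425 CPM against 3755 to 5205 CPM under vehicle. Epcam, on the same list, was higher under TGF-β, at 353 to 388 CPM against 217 to 234 CPM. The part that the shift of these sums had in the members' fall was not tested.

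The steepest fall was that of Reg3g, to 4.49, 1.22 and 0.114 CPM in mice 2, 3 and 4 (48.0-fold, log2 -5.58 ± 0.24, edgeR adjusted p = 6.75e-13). Tff2 fell to 0.195, 0 and 0.114 CPM (16.6-fold, -4.05 ± 0.50, edgeR adjusted p = 1.18e-06). Bpifa1 fell to 61.7, 36.0 and 18.6 CPM (9.37-fold, edgeR adjusted p = 4.41e-13), and Pigr to 4.20, 2.53 and 0.682 CPM (9.19-fold, edgeR adjusted p = 8.91e-11). In each of these genes the highest TGF-β library was below the lowest vehicle library. Ltf fell to 206, 115 and 58.2 CPM (5.54-fold, edgeR adjusted p = 1.95e-10) and Pglyrp1 to 11.1, 11.0 and 11.1 CPM (4.47-fold, edgeR adjusted p = 4.57e-11).

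The falls of Chil1, Slpi and Lcn2 were smaller. Chil1 fell to 52.0, 35.2 and 20.2 CPM (2.47-fold, edgeR adjusted p = 3.12e-05). Slpi fell to 10.3, 10.4 and 7.95 CPM (log2 -0.66 ± 0.20, edgeR adjusted p = 0.0102), and Lcn2 to 10.4, 7.50 and 4.09 CPM (-0.53 ± 0.19, edgeR adjusted p = 0.028), which overlapped the vehicle libraries. For Saa3, 2 reads under TGF-β stood against 27 under vehicle, a ratio of 9.82 with a counting interval of 2.47 to 85.2 (edgeR adjusted p = 0.0106). Once the share of fibroblast RNA was subtracted, Lcn2 (-0.12 ± 0.20, edgeR adjusted p = 0.712), Slpi (-0.37 ± 0.33, 0.458) and Saa3 (-2.66 ± 0.98, 0.0746) were no longer called and the other 7 were. Without mouse 3, and likewise without mouse 4, Lcn2 and Saa3 were not called, and without mouse 2 Slpi was not.

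IPFc contains TGF-β, so IPFc was also set against TGF-β alone, a comparison with no library of the EC contrast. Here 9 of the 10 members were higher under IPFc, where 18.6% of all genes were, with a median of 2.95 against -0.04 (log2). Reg3g differed by 93.6-fold (log2 6.55 ± 0.24, edgeR adjusted p = 5.43e-14), Bpifa1 by 21.3-fold (4.41 ± 0.14, 6.89e-15) and Pigr by 5.27 ± 0.20 on the log2 scale (5.43e-14). Slpi differed least among the 9 (0.60 ± 0.20, edgeR adjusted p = 0.0197), and Saa3 did not pass with 5 reads against 2 (adjusted p = 0.657). The Slpi call was lost after subtraction of fibroblast RNA (0.27 ± 0.33, edgeR adjusted p = 0.596) and without mouse 2, and the other 8 were called in both cases.

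In the fibroblast fraction the values are read against the epithelial RNA it held. Under EC, 9 of the 10 genes were again higher than under vehicle and Bpifa1 was lower (-0.73 ± 0.22), where 4.28% of all genes were called higher and 2.84% lower. Lcn2 was at 9.85, 12.1 and 13.0 CPM under vehicle (mice 1, 3 and 4) and at 351, 343, 254 and 268 CPM under EC (24.3-fold, log2 4.60 ± 0.26), so its EC level was above that of the epithelial partner in each of the 4 cultures. Saa3 went from 0.977, 1.24 and 2.90 CPM to 249, 84.2, 52.2 and 70.7 CPM (57.4-fold, 5.84 ± 0.47), and Slpi from 14.5, 9.02 and 14.6 CPM to 254, 102, 75.1 and 85.2 CPM (9.26-fold, 3.21 ± 0.30). For both the library of mouse 1, the shallowest of all, was far above the other 3, and without that mouse the log2 difference was 2.76 for Slpi and 4.91 for Saa3. Without mouse 4 that of Saa3 was 6.63.

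Chil1 stood at 60.8, 53.5 and 60.1 CPM under vehicle and at 427, 557, 317 and 429.9 CPM under EC (6.47-fold), a level much like that of the epithelial fraction. Pigr (1.05–2.84 to 32.8–52.1 CPM, 21.3-fold), Pglyrp1 (5.56–13.2 to 46.9–109 CPM, 10.3-fold), Ltf (76.7–108 to 327–602 CPM, 4.60-fold) and Reg3g (7.43–13.7 to 26.9–48.8 CPM, 3.56-fold) were also higher under EC, at levels well below the epithelial ones. Tff2 had 3 reads under vehicle and 147 under EC, a ratio of 39.0 with a counting interval of 13.1 to 191.

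The ratio of fibroblast to epithelial level in the same culture separates the genes into those above and those at or below the level that the epithelial reference genes give. For Lcn2 this ratio was 4.26 to 7.58 times the median ratio of the reference genes under vehicle, 2.38 to 4.02 times under EC and 5.78 to 14.8 times under IPFc. For Slpi it was 3.09 to 6.04, 2.16 to 11.8 and 5.01 to 10.7 times, and for Saa3 7.69 to 88.7 and 5.15 to 57.4 times under vehicle and EC and 86.0 times or more in the 3 IPFc cultures with epithelial reads. Lcn2 was above every single reference gene in 10 of the 11 cultures, Slpi in 9 and Saa3 in the 10 that gave it a ratio. The IPFc culture of mouse 2 gave none, with 45 fibroblast reads of Saa3 against 0 epithelial reads. Chil1 was above the median in all 11 cultures (1.53 to 4.48 times) and above every reference gene in none.

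The other 6 genes behaved differently by this measure. Ratios to the reference median were 0.165 to 0.758 for Bpifa1, 0 to 0.692 for Tff2, 0.146 to 1.10 for Pigr, 0.195 to 1.08 for Reg3g, 0.305 to 1.01 for Ltf and 0.515 to 0.944 for Pglyrp1 over the vehicle, EC and IPFc cultures. With the estimated epithelial RNA subtracted, Lcn2 (4.73 ± 0.54), Slpi (3.64 ± 0.46), Chil1 (2.68 ± 0.27) and Saa3 (6.24 ± 0.68) stayed higher under EC in the fibroblast fraction on the log2 scale. The subtraction takes off the median share of the partner level and stops at 0, so a ratio of 1 or less leaves no reads. For the other 6 genes the outcome therefore follows from the ratios above and is no further result. Of them, Pigr, Pglyrp1, Tff2 and Bpifa1 had too few reads left to be fitted. Ltf (-4.20 ± 3.17) and Reg3g (-4.93 ± 1.93) gave negative values. Their subtracted levels were 0 CPM under EC and at most 0.873 and 1.02 CPM under vehicle, so no fall is read from them. Transcription of those 6 genes by the fibroblast line itself was not tested. In the opposite direction, the epithelial Saa3 level under EC was 4.67%, 17.9%, 11.0% and 33.0% of that of the fibroblast partner in mice 1 to 4, against fibroblast RNA shares of 16.8%, 13.1%, 5.39% and 11.9% in the same libraries. Only in mouse 1 was it below that share.

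**Figure D3:**
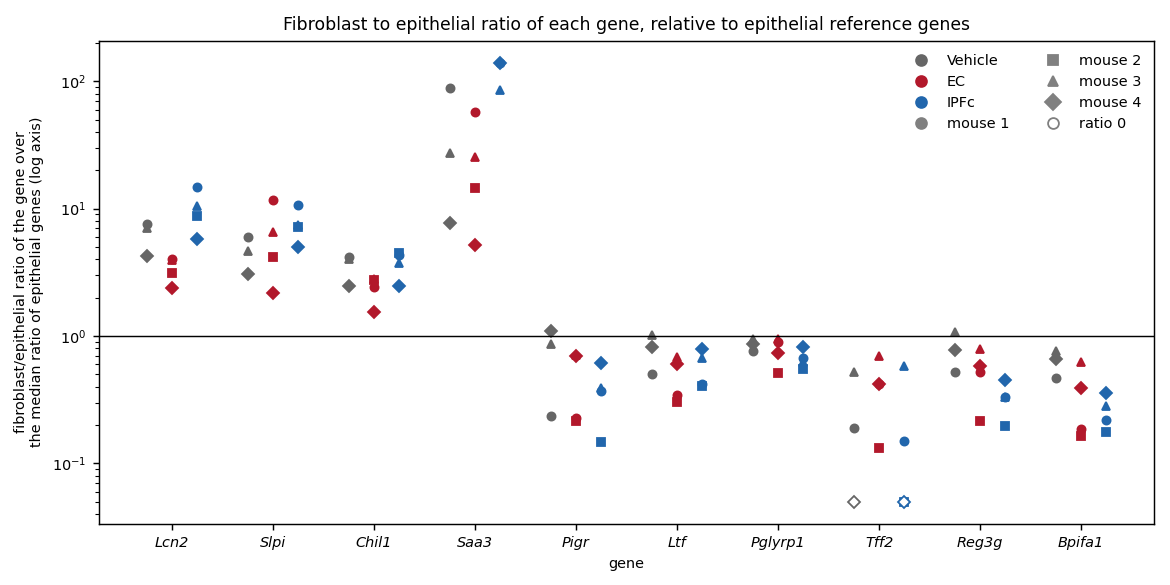
Ratio of the fibroblast to the epithelial level of each gene in the same culture, divided by the median of that ratio over epithelial reference genes, on a log axis, for vehicle, EC and IPFc cultures. Points are cultures and the line at 1 is the reference median. Lcn2, Slpi, Saa3 and Chil1 lie above 1 in the cultures shown, and Bpifa1 and Tff2 below it.

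IPFc changed little in the fibroblast fraction. Of the members, 3 rose and none fell, where 0.305% of all genes rose (55 of 18048) and 81 genes were called in either direction. Lcn2 rose to 20.8, 31.7, 30.4 and 26.6 CPM (log2 1.12 ± 0.23, edgeR adjusted p = 0.046), Chil1 to 88.1, 191, 164 and 132 CPM (1.10 ± 0.21, 0.0276) and Pigr to 5.35, 3.30, 5.78 and 7.91 CPM (1.47 ± 0.25, 0.0107). These calls were not stable: none was left without mouse 3, without mouse 4, without the mouse term or after subtraction of epithelial RNA. Saa3 was at 0.963–3.66 CPM (0.61 ± 0.51, edgeR adjusted p = 1) and Slpi at 15.8–21.4 CPM (0.53, 0.868), both well below their EC levels.

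Under TGF-β the fibroblast fraction held little of any of the genes. Of the members, 9 fell, where 12.8% of all genes fell and 6.39% rose, with a median of -4.72 against -0.02 (log2). Lcn2 fell to 0.0781, 1.20, 0.621 and 0.363 CPM (20.8-fold, log2 -4.38 ± 0.32, edgeR adjusted p = 3.14e-08), Slpi to 0.547, 1.27, 0.683 and 1.09 CPM (13.3-fold, 8.66e-07) and Chil1 to 2.81, 8.15, 2.85 and 5.02 CPM (14.1-fold, 5.19e-09). Saa3 had no read in the 4 libraries against 76 under vehicle, at least 35.7-fold lower when set against 3 reads summed over the group (edgeR adjusted p = 0.00103), with a lower exact counting limit of 28.3 on the ratio. These 4 genes also fell after subtraction of epithelial RNA, with adjusted p between 2.25e-05 and 0.00711.

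Bpifa1 fell by 114-fold (edgeR adjusted p = 5.84e-10), Ltf by 33.5-fold (2.56e-09) and Pglyrp1 by 15.7-fold (5.99e-09) in the same libraries. Pigr had 1 read against 94 (ratio 132, counting interval 23.2 to 5282), and Reg3g 1 against 430 (ratio 605, counting interval 108 to 23965). The epithelial share of 2.09% in TGF-β libraries against 21.0% in vehicle libraries lies in the same direction, and after subtraction Bpifa1, Pglyrp1 and Pigr had too few reads left to be fitted, while Ltf (1.52 ± 2.12, edgeR adjusted p = 0.906) and Reg3g (-3.34 ± 1.65, 0.571) were not called. Tff2 had 0 reads against 3, which gives no fold. Compared with TGF-β, IPFc was higher for 9 members where 12.1% of all genes were, led by Bpifa1 (6.81, edgeR adjusted p = 3.46e-10) and Lcn2 (5.50 ± 0.30, 1.21e-09) among the genes with more than 3 reads in each group. With epithelial RNA subtracted, Lcn2, Slpi, Chil1 and Saa3 were still higher, Bpifa1, Pigr, Pglyrp1 and Tff2 had too few reads left to be fitted, and Ltf (-5.82 ± 2.74, edgeR adjusted p = 0.524) and Reg3g (-1.35 ± 1.24, 0.926) were not called. For Bpifa1, Pigr, Pglyrp1, Tff2, Ltf and Reg3g the subtraction removed nearly all vehicle and IPFc reads by its form, as their ratios above show. Nothing further is read from it for these genes.

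The fractions were also set against each other within IPFc and TGF-β, where neither library chose the genes. Under IPFc, 7 members were higher in the epithelial fraction and 2 in the fibroblast fraction, where 26.3% and 25.9% of all genes were. Higher in epithelium were Tff2 (5.05 ± 0.67, edgeR adjusted p = 1.23e-05), Bpifa1 (4.61 ± 0.40, 7.97e-08), Reg3g (4.27 ± 0.38, 9.6e-08), Pigr (4.15 ± 0.51, 2.7e-06), Ltf (3.48 ± 0.39, 1.09e-06), Pglyrp1 (3.17 ± 0.27, 6.53e-08) and Chil1 (0.73 ± 0.17, 0.00187). Higher in fibroblasts were Saa3 (-4.80 ± 0.74, edgeR adjusted p = 5.15e-05) and Lcn2 (-0.64 ± 0.12, 0.000333), and Slpi did not pass (-0.27 ± 0.23, 0.349). The members thus divided into a group led by airway-surface genes and a smaller one with the acute phase gene Saa3 and lipocalin-2.

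Under TGF-β, 8 members were higher in the epithelial fraction, where 21.7% of all genes were. Lcn2, which had been lower in epithelium under IPFc, was higher there by 3.35 ± 0.20 (log2, edgeR adjusted p = 1.88e-09), and Slpi by 3.23 (9.97e-07). Pigr had 125 reads against 1 (ratio 178) and Reg3g 109 against 1 (ratio 156), while Saa3 (2 reads against 0) and Tff2 (5 against 0, adjusted p = 0.129) were too low to compare.

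The response to TGF-β differed between the fractions. The fall was larger in the fibroblast fraction for 6 members, where 11.3% of all genes differed in that direction. The differences between the log2 fold changes were 3.97 ± 0.79 for Bpifa1 (edgeR adjusted p = 0.00265), 3.54 ± 0.25 for Lcn2 (4.08e-07), 2.97 ± 0.44 for Slpi (0.000288), 2.83 ± 0.63 for Ltf (0.00562), 2.13 ± 0.30 for Chil1 (0.000186) and 2.09 ± 0.52 for Pglyrp1 (0.0124). Pigr, Saa3, Tff2 and Reg3g did not pass, with adjusted p between 0.187 and 0.821. Without mouse 2 Pglyrp1 was not called, and without mouse 3 neither Ltf nor Pglyrp1 was. After the RNA of the other fraction was subtracted, Lcn2 and Chil1 were still called. Slpi kept its sign but missed the threshold (3.68 ± 0.75, edgeR adjusted p = 0.0522). Ltf (-1.78 ± 2.42), Pglyrp1 (-5.60 ± 1.64) and Bpifa1 (-2.62) then had the opposite sign and were not called. Their subtracted fibroblast levels under TGF-β were at most 1.33 CPM for Ltf, 0.390 CPM for Pglyrp1 and 0 CPM for Bpifa1. Those signs are therefore not read as a response. For the response to IPFc no member differed between the fractions (edgeR adjusted p = 1 for each, 4 at an unadjusted p under 0.05, none with DESeq2), where 0.0218% of all genes did.

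Mice differed in some of the genes and not in others. Pigr, Reg3g and Bpifa1 had the same order in the epithelial fraction in each treatment, with mouse 2 highest, then mouse 1, mouse 3 and mouse 4, and mice 2, 3 and 4 in that order under TGF-β, for which mouse 1 has no library here. From the highest to the lowest mouse, Reg3g spanned 5.35-fold under vehicle, 4.86-fold under EC, 3.77-fold under IPFc and 39.5-fold under TGF-β. For Pigr the span was 5.31, 3.51, 3.61 and 6.16-fold and for Bpifa1 2.49, 2.40, 1.99 and 3.31-fold. Chil1 (1.14 to 2.57-fold), Pglyrp1 (1.01 to 1.39-fold), Slpi (1.31 to 2.23-fold) and Lcn2 (1.43 to 2.55-fold) kept no fixed order. Of a few genes looked up after these values were seen, the airway mucin Muc5b and the ciliated cell factor Foxj1 had the order of Pigr in each treatment. The club cell gene Scgb1a1, the secretory gene Scgb3a1, the alveolar type 2 gene Sftpc, and Bpifb1, Agr2 and Trp63 did not. The basal cell keratin Krt5 spanned 18.2 to 52.6-fold with mouse 2 highest and mouse 4 lowest, and Epcam spanned 1.08 to 1.41-fold in no fixed order. Whether the mice gave different mixtures of epithelial cells was not tested.

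**Figure D4:**
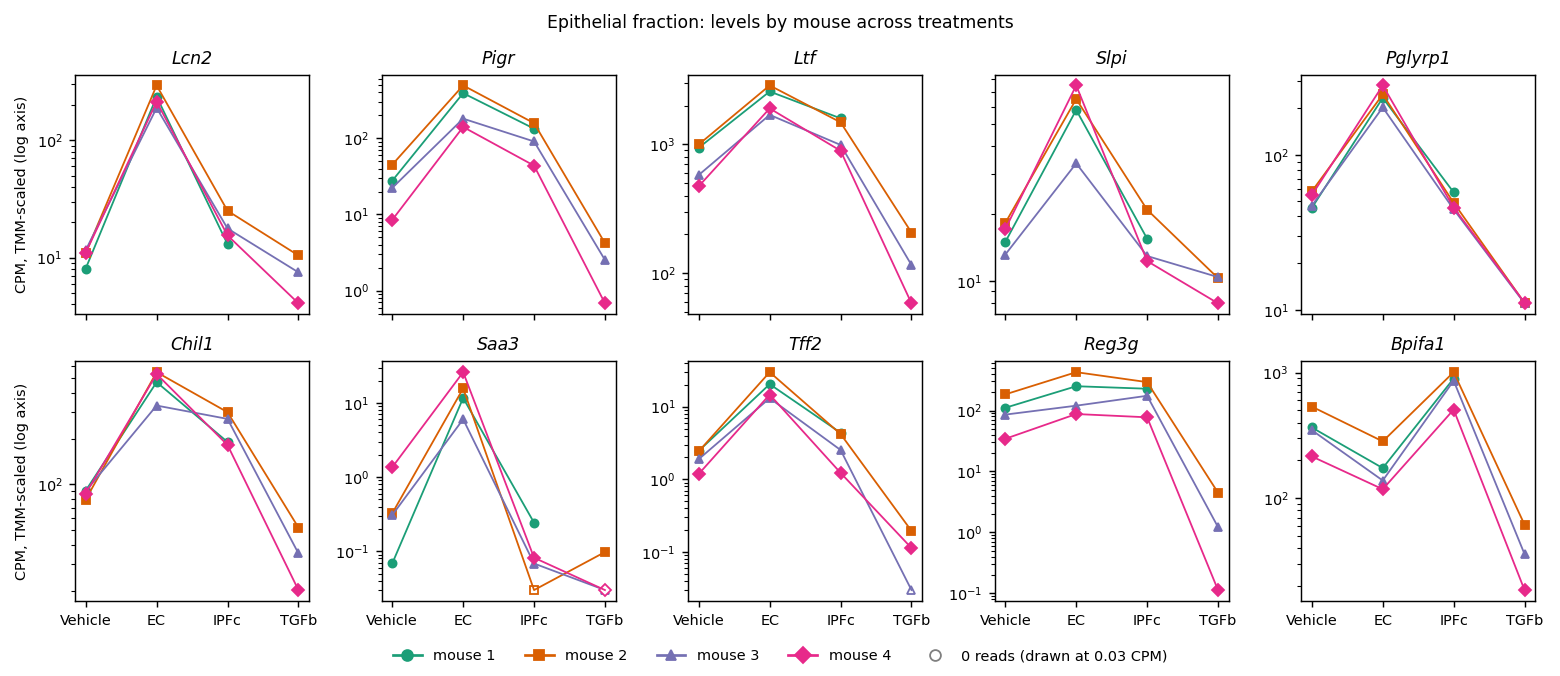
Epithelial level of each gene in CPM on a log axis across vehicle, EC, IPFc and TGF-β, with 1 line for each of the 4 mice, and libraries with 0 reads as open symbols at the foot of the panel. For Pigr, Reg3g and Bpifa1 the lines of mice 2, 1, 3 and 4 lie in that order without crossing, and for Lcn2, Slpi and Pglyrp1 they cross.

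Other genes of the same families went in several directions. The gene lists used here and in the paragraphs below were drawn up with earlier results of these data known. Their counts and p-values in every comparison are therefore a description, and no support is drawn from them. In a list of 53 related defence genes, 25 had enough reads in the epithelial fraction. Under EC 5 rose and 3 fell, where 1.96% and 2.44% of all genes did. Lyz1, a lysozyme that cleaves peptidoglycan, rose under EC (log2 1.53 ± 0.17, edgeR adjusted p = 5.21e-06) and fell under IPFc (-1.64 ± 0.19, 1.23e-05), and the trefoil gene Tff1 did the same (1.72 ± 0.22, 3.74e-05, and -1.47 ± 0.26, 0.00156). The acidic chitinase Chia1 fell under EC (-1.85 ± 0.20, edgeR adjusted p = 3.45e-06) and rose under IPFc (0.92 ± 0.18, 0.00351), in the directions of Bpifa1.

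Under IPFc 8 of the 25 rose and 3 fell, where 2.57% and 1.53% of all genes did. Chil4, a chitinase-like protein of the type 2 response, went from 0.0848–0.973 CPM to 2925–4610 CPM (log2 13.13 ± 0.24, edgeR adjusted p = 1.63e-17). Retnla, a resistin-like protein of the same response, rose to 638–1350.0 CPM (2.82 ± 0.16, 2.24e-10) and fell under EC (-0.64 ± 0.15, 0.0161). The Bpifa1 relative Bpifb1 rose under IPFc (2.39 ± 0.13, edgeR adjusted p = 2.24e-10) and less under EC (0.71 ± 0.13, 0.00201). TGF-β raised none and lowered 14 of the 25 in epithelium, where 21.0% and 20.1% of all genes rose and fell, among them Retnla (-5.63 ± 0.24), the surfactant proteins Sftpa1 (-4.43 ± 0.22) and Sftpd (-2.19 ± 0.12), with edgeR adjusted p of 4.91e-13, 5.15e-12 and 1.59e-11. Of 24 such genes in the fibroblast fraction, 7 rose under EC, 4 under IPFc and 1 under TGF-β, and 11 fell under TGF-β, where 4.28%, 0.305%, 6.39% and 12.8% of all genes did.

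Of 32 further acute phase genes, 16 could be fitted in the epithelial fraction. Under EC 6 of the 16 rose and none fell, where 1.96% and 2.44% of all genes did. They included Steap4, a metalloreductase (3.24 ± 0.18, edgeR adjusted p = 1.55e-10), the copper-carrying ferroxidase ceruloplasmin, Cp (1.46 ± 0.09, 1.09e-09), and complement C3 (0.96 ± 0.11, 4.86e-06). Under IPFc 6 rose and 1 fell, where 2.57% and 1.53% of all genes did. Among the 6 were C3 (0.84 ± 0.11, edgeR adjusted p = 3.23e-05) and the lipopolysaccharide-binding protein Lbp (0.85 ± 0.15, 0.00128). The gene that fell was haptoglobin, Hp (-0.65 ± 0.10, 0.000294). C3 and Lbp were higher in the fibroblast fraction than in epithelium under both EC and IPFc. The fibroblast share in epithelial libraries was 6.01% under vehicle, 11.8% under EC and 11.3% under IPFc. Its part in the epithelial rises of C3 and Lbp was not tested. Under TGF-β 3 of the 16 were higher in epithelium, against 21.0% of all genes, among them Lbp (0.83 ± 0.16, edgeR adjusted p = 0.000288, beside a fibroblast level of 85.5–111 CPM), and 5 were lower, against 20.1%, among them transferrin, Trf (-1.99 ± 0.12, 6.54e-11). In the fibroblast fraction 19 were fitted. Under EC 7 rose and 1 fell, where 4.28% and 2.84% of all genes did. Under IPFc 1 rose and 1 fell, where 0.305% of all genes rose (55 of 18048) and 81 genes were called in either direction. Under TGF-β 1 rose and 10 fell, where 6.39% and 12.8% of all genes did in this fraction. There C3 stood at 975–1122 CPM under vehicle, 1464–2827 CPM under EC and 19.3–26.1 CPM under TGF-β (-5.43 ± 0.18, edgeR adjusted p = 1.23e-11).

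Another list held 38 inducers, receptors and partners of the members, 35 of them fitted in epithelium and 33 in fibroblasts. In epithelium 8 rose and 1 fell under EC, where 1.96% and 2.44% of all genes did. Under IPFc 5 rose and 2 fell, where 2.57% and 1.53% did. Under TGF-β 8 rose and 8 fell, a share close to the 21.0% and 20.1% of all genes. Cebpd, a C/EBP factor of the acute phase, rose under EC (1.64 ± 0.18, edgeR adjusted p = 3.71e-06), as did the alarmin Il33 (1.14 ± 0.13, 9.92e-06). Lrp2, megalin, an endocytic receptor that takes up lipocalin-2 among other ligands, fell under EC (-1.14 ± 0.18, edgeR adjusted p = 0.00049) and under IPFc (-0.91 ± 0.18, 0.00435). The IL-33 receptor gene Il1rl1 rose under IPFc (1.78 ± 0.21, edgeR adjusted p = 2.41e-05) and TGF-β (4.26 ± 0.22, 7.47e-12). The latter was in libraries whose fibroblast reference genes stood at 29.4% of the partner level, beside a fibroblast level of Il1rl1 of 82.8–120.0 CPM. In fibroblasts 2 rose and 2 fell under EC, near the 4.28% and 2.84% of all genes. None was called there under IPFc, where 81 of 18048 genes were. Under TGF-β 1 rose and 12 fell there, where 6.39% and 12.8% of all genes did.

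The genes whose epithelial pattern was nearest to each member were found by the root mean square difference of centred log2 CPM over the 15 epithelial libraries, among 12876 genes. Nearest to Lcn2 were the pantetheinase Vnn3 (0.554), the neutrophil chemokine Cxcl5 (0.616) and Steap4 (0.776). Vnn3 was also nearest to Saa3 (1.05) and second to Tff2 (0.844), and it went from 2.60–3.90 CPM under vehicle to 36.2–61.3 CPM under EC. Nearest to Slpi were Noxo1 (0.335), Cp (0.435) and Vnn1 (0.436), to Pglyrp1 Slc16a3 (0.343), Cxcl3 (0.366) and Slco1a5 (0.414), and to Tff2 Cxcl3 (0.772).

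Bpifa1 had other neighbours, Mc5r (0.512), Msc (0.524) and Retnlg (0.572), and Mc5r went from 10.3–11.9 CPM under vehicle to 2.62–3.91 CPM under EC and 12.1–21.3 CPM under IPFc. Nearest to Reg3g were Muc5b (1.21), Klk13 (1.26) and the mucin-folding gene Agr2 (1.27), to Pigr Itln1 (1.11), Cd177 (1.13) and Kng1 (1.19), to Ltf Cbr2 (0.491), Bhlha15 (0.553) and 2010007H06Rik (0.560), and to Chil1 1700066B19Rik (0.556), Slco1a5 (0.592) and Fut9 (0.610). Among the members, the closest pairs were Ltf with Chil1 (0.581), Pglyrp1 with Chil1 (0.686) and Slpi with Pglyrp1 (0.701), and the farthest was Saa3 with Bpifa1 (3.19). All points of these distances share the 15 libraries and their treatments.

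Across all 8 groups, Lcn2 and Slpi were highest in the fibroblast EC group (means of 304 and 129 CPM) and lowest in the fibroblast TGF-β group, and Saa3 shared that top group. Pigr, Ltf, Pglyrp1, Tff2 and Reg3g were highest in the epithelial EC group, and Bpifa1 in the epithelial IPFc group. Neighbouring groups often overlapped, as for Lcn2, whose fibroblast and epithelial EC libraries shared a range and whose epithelial vehicle and TGF-β libraries did as well.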

How the data were processed

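RNA of 30 libraries was sequenced with a directional kit. The authors trimmed reads with Trimmomatic 0.30, and per the labels the build was GRCm39, while the study's methods name GRCm38.p6. The deposited values are raw read counts per Ensembl gene, not normalized. The aligner, the counter and its strand setting are not given in the sources used here, so reads of overlapping or near-identical genes could be shared.

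From the counts, CPM, counts scaled to library size with TMM factors, were computed and each fraction was fitted with edgeR 4.0.16 (R 4.3.3, quasi-likelihood, two-sided) over its 4 treatments with the mouse as a block, for genes with a mean count of at least 1. Fractions and their responses were compared over all 30 libraries with the culture as a block. P-values were adjusted over all genes (Benjamini-Hochberg) and called at 0.05. The mouse numbers of the labels pair the samples, and deviations from group means correlated by 0.237 on average between libraries of the same mouse (-0.000908 to 0.517 over 21 pairs) and by -0.0770 between mice in the epithelial fraction, and by 0.274 (-0.181 to 0.602) and -0.0897 in the fibroblast fraction. No library repeated another.

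The share of the other fraction was the median over reference genes of at least 50 CPM in the partner library of the same culture. It is a ratio of levels to that partner library and not a percent of the RNA. Subtraction took this share of the partner's level from each library and set values below 0 to 0. Single reference genes lay at 16.1% to 96.7% in the epithelial TGF-β library of mouse 3. In fibroblast EC they lay at 16.0% to 183% in mouse 1 and reached 120%, 135% and 130% in mice 2, 3 and 4. Each fibroblast EC library thus held at least 1 epithelial reference gene above the level of its partner, so the share there is a rough value. Counting intervals are exact 95% intervals and cover counting error only. Depth limits low levels: for a group with 0 reads, a fold is a bound set against 3 reads summed over the group's libraries.

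The members and lists were chosen with earlier results of these data known. Named genes are all members, up to 3 genes per list and direction by smallest adjusted p, and the 3 nearest genes of each member (mean of at least 1 CPM, prior count 2). Summed levels of epithelial, fibroblast, neutrophil, leukocyte and airway secretory marker lists stand in the report. Summed over 18 genes, endothelial markers were at 9.84 to 36.7 CPM in all groups. Ciliated markers (12 genes) were at 60.4 to 147 CPM in epithelial and 7.65 to 113 CPM in fibroblast libraries, and alveolar type 1 markers (12 genes) at 1748 to 3992 and 869 to 2098 CPM. Alternatives were DESeq2 1.42.0, its size factors, library totals, other filters, no block, robust dispersion, fewer groups, subtraction of the other fraction and each mouse left out.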

Additional observations from a re-analysis of the deposited data

Results flagged for a closer look

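In groups of 4 libraries, 7 of the 60 looked at held a value far from the other 3 by Dixon's test, which chance passes in about 1 in 20. All 7 were in the fibroblast fraction. Under EC, mouse 1 was high for Saa3 (249 CPM) and Slpi (254 CPM), and mouse 2 was low for Tff2 (1.47 CPM). Under IPFc, Pglyrp1 was high in mouse 4 (11.1 CPM) and Saa3 low in mouse 3 (0.963 CPM). Under TGF-β, single reads of Pigr in mouse 4 (0.0604 CPM) and of Reg3g in mouse 3 (0.0621 CPM) stood against 0 in the other libraries. The cause was not tested.

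The response to TGF-β, epithelial minus fibroblast, differed by 3.54 (log2) for Lcn2, 2.83 for Ltf, 2.97 for Slpi, 2.09 for Pglyrp1, 2.13 for Chil1 and 3.97 for Bpifa1, each past the edgeR interaction test. The epithelial share of the fibroblast libraries, 21.0% under vehicle and 2.09% under TGF-β, moved with these values.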

How the results depend on the processing

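Most results kept direction and call. Over the members' fold changes, 1691 alternative values kept both, 37 lost a call, 9 gained one, 24 changed sign and 12 moved otherwise. Without the mouse block, members called in IPFc against vehicle went from 6 to 2 in epithelium and from 3 to 0 in fibroblasts, and no other count moved by over 1.5 times. After subtraction of the other fraction, members called fell to 4 for EC against vehicle, TGF-β against vehicle and IPFc against TGF-β in fibroblasts, to 0 for IPFc against vehicle there, and to 2 for the response to TGF-β. For genes at or below the median ratio of the reference genes, the loss follows from the form of the subtraction. Without a filter, 3 members were called for the response to IPFc. Leaving out each mouse gave 0 to 3 members for fibroblast IPFc.

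Signs changed mostly after subtraction, where few reads remained. On the log2 scale in fibroblasts, Ltf was -4.20 under EC, -4.31 under IPFc, 1.52 under TGF-β and -5.82 for IPFc against TGF-β, and Reg3g was -4.93 under EC, -1.35 for IPFc against TGF-β and -0.24 for EC against IPFc. With subtracted fibroblast levels of at most 1.33 CPM for Ltf and 1.02 CPM for Reg3g, these values are not read as changes. In epithelium Pglyrp1 was 0.024 under IPFc and Saa3 -2.72 for IPFc against TGF-β. Responses to TGF-β were -0.73 for Pigr, -1.78 for Ltf, -5.60 for Pglyrp1, -2.26 for Reg3g and -2.62 for Bpifa1. None of these responses was called, and their standard errors were 1.64 or more.

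The other sign changes were of uncalled values. Leaving out each mouse gave -0.15 to 0.081 for Slpi and -0.21 to 0.0019 for Pglyrp1 in epithelial IPFc, -0.14 to 3.97 for Saa3 in epithelial IPFc against TGF-β, and in fibroblast IPFc -0.092 to 0.58 for Tff2, -0.34 to 0.18 for Reg3g and -0.21 to 0.16 for Bpifa1, which was 0.027 with only the groups compared. For the response to IPFc it gave -0.030 at the lowest for Chil1 and -0.038 to 1.25 for Tff2. Counts over all genes ranged widely, for epithelial IPFc from 169 to 1118 around 740 and for fibroblast IPFc from 3 to 251 around 81. Libraries of 5113828 reads limit what a level near 0 can show.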
